A study of Mus musculus with 13 samples.

Results

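The genes described here encode the subunits, activators, inhibitor, and dedicated assembly chaperones of the proteasome, measured in mouse sciatic nerve at 5 d after crush (5 dpc). They were chosen by symbol, as protein-coding genes named Psma, Psmb, Psmc, Psmd, Psme, Psmf, or Psmg followed by a digit, with 50 counts or more in at least 2 of the 13 libraries. Of 50 such genes, 47 met the count rule, among 12851 genes of the table that did. The other 3 were Psma8, a testis form of an alpha subunit (0 to 17 counts per library), Psmb11, the thymus catalytic subunit (0 to 18 counts), and Psme2b (3 to 25 counts). Psmc3ip carries the prefix but encodes a homologous recombination factor and is not a proteasome part, so counts are also given for the other 46.

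The proteasome degrades proteins that have been tagged with ubiquitin. Its 20S core is a barrel in which rings of alpha subunits, which gate the entrance, enclose rings of beta subunits, of which Psmb5, Psmb6, and Psmb7 carry the constitutive proteolytic sites. The 19S cap recognizes ubiquitinated proteins, unfolds them with a ring of ATPases (Psmc), and removes the ubiquitin with the lid enzyme Psmd14. Interferon and immune cells bring in Psmb8, Psmb9, and Psmb10 in place of the constitutive catalytic subunits, and in nerve distal to an injury, Schwann cells (SCs) break down myelin and dedifferentiate while macrophages enter.

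RNA was sequenced from whole sciatic nerve with the epineurium removed, 1 library per nerve, on C57BL/6 mice of either sex that all carried floxed Rptor alleles and all received tamoxifen at 2 months of age. RaptorKO mice also carried a tamoxifen-inducible Cre that is active in SCs and other glia, whereas control mice carried no Cre. The crush was made 2 months after tamoxifen. There were 3 control injured, 3 RaptorKO injured, 3 control contralateral, and 4 RaptorKO contralateral nerves. Rptor, which encodes the mTORC1 component raptor, had 43.7 to 52.5 CPM (depth-scaled counts with TMM factors) in control contralateral, 22.1 to 28 in RaptorKO contralateral, 35.0 to 48.6 in control injured, and 23.2 to 28.6 in RaptorKO injured nerves. The groups did not overlap, and the log2 difference between genotypes was -1.0 ± 0.12 (SE) in contralateral nerves (adjusted p = 5e-04) and -0.68 ± 0.15 in injured nerves (adjusted p = 0.0167). Which cells the remaining transcript comes from was not tested.

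Libraries held 8200458 to 13581775 counts. Both libraries of control mouse 3 held 14462 and 15017 counts of Xist, the X inactivation transcript, whereas the other 11 libraries held 4 to 17, so the sexes were not balanced over the mice. Cell type markers were checked against the labelled tissue. The 10 SC markers summed to 73240 to 95080 CPM in contralateral and 2932 to 4768 CPM in injured nerves. The 10 macrophage markers summed to 142 to 297 CPM in contralateral and 1584 to 3324 CPM in injured nerves, and the 8 markers of cycling cells to 71.4 to 102 CPM and 997 to 1802 CPM. The 5 B cell markers stayed at 0.819 to 3.73 CPM in sum, and the 10 T and NK cell markers at 0.879 to 5.54 CPM in contralateral and 7.39 to 25.4 CPM in injured nerves. Of these T and NK cell markers, only Cd4 had enough counts to be tested, with 4 to 33 in contralateral and 63 to 252 in injured nerves. The others, Cd3e, Cd3d, Cd3g, and Cd8a among them, held 0 to 13 counts per library. In bulk tissue, more transcript per cell and more cells that carry the transcript cannot be told apart.

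Proteasome transcripts made up a larger part of the library after injury in both genotypes. They took 0.21% to 0.246% of all counts in contralateral and 0.305% to 0.323% in injured nerves, before any scaling. After TMM scaling, the 47 genes summed to 2422, 2400, and 2495 CPM in the control contralateral nerves and to 2928, 3017, and 3030 CPM in the control injured nerves. In RaptorKOs they summed to 2489, 2556, 2474, and 2222 CPM in contralateral and 2986, 2976, and 2969 CPM in injured nerves. Every injured nerve was above every contralateral nerve, and the injured mean was 1.23 times the contralateral mean in controls and 1.22 times in RaptorKOs. Injured nerves ranged from 2928 to 3030 CPM. RaptorKO injured nerve 2 had 1584 CPM of macrophage markers, and the other RaptorKO injured nerves 3324 and 3318, while their proteasome sums were 2976, 2986, and 2969 CPM. Cycling markers were at 1653 to 1802 CPM in control injured and 997 to 1116 CPM in RaptorKO injured nerves. What cell content contributes to the level was not tested.

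To show the DNA around the start of these genes, promoters are printed for the genes with the largest rise (Psmd8 and Psme4) and the largest fall (Psmf1) after injury in controls, for the catalytic subunit Psmb5, and for the lid subunit Psmd13. Each runs 5′ to 3′ from 250 bases before to 50 bases after the start of the RefSeq transcript in GRCm38.p6, on the gene's own strand. Psmd8 lies at chr7:29180624-29180923 (minus strand), Psme4 at chr11:30771525-30771824 (plus), Psmf1 at chr2:151741261-151741560 (minus), Psmb5 at chr14:54617946-54618245 (minus), and Psmd13 at chr7:140882144-140882443 (plus). Capitals mark TGACNNNGC, the core of the antioxidant response element bound by Nfe2l1 and Nfe2l2, or CCGGAAG, an ETS factor element, on either strand. In these windows the motifs do not overlap, and the last 50 bases follow the start. The GENCODE genes of Psmf1 (chr2:151715812-151744186) and Psmd13 (chr7:140881968-140898643) begin upstream of these RefSeq starts, so both windows lie inside the gene. Those of Psmd8, Psme4, and Psmb5 also begin upstream of the RefSeq start, but within the window. Distances below are from the RefSeq start.
Psmd8: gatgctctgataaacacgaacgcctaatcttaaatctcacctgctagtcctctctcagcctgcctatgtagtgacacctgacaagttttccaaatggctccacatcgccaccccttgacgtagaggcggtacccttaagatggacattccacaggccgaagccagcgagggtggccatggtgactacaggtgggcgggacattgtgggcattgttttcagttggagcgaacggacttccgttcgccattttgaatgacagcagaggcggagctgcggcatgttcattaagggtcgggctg
Psme4: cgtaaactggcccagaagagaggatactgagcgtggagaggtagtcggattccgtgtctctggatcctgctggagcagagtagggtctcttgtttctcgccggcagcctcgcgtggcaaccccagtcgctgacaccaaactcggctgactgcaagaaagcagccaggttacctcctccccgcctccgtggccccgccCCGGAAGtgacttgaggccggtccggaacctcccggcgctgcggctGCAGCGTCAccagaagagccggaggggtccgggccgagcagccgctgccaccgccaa
Psmf1: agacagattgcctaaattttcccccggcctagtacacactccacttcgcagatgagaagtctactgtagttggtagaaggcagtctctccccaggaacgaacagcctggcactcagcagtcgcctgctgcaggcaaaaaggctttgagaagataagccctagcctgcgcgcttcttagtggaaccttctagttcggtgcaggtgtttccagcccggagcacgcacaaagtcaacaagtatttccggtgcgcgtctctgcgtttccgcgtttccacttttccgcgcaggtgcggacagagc
Psmb5: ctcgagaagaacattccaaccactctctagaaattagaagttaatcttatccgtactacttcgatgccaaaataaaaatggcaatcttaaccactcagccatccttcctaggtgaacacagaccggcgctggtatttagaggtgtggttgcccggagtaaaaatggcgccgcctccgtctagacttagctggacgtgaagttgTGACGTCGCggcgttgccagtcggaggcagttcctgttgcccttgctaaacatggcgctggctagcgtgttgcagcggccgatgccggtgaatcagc
Psmd13: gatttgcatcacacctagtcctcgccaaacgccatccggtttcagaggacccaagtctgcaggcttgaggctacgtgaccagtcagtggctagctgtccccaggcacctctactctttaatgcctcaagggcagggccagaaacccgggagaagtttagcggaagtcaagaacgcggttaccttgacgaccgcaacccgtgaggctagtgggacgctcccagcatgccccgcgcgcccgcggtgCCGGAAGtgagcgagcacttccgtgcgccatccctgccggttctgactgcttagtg

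The promoters differed in these letters. Psmd8 and Psmf1 held neither motif, nor the AP-1 element TGACTCA or the CCAAT box, which were also searched on both strands. Psmb5 held TGACNNNGC 47 bases before the start, Psme4 held it on the other strand 7 bases before the start and CCGGAAG 53 bases before it, and Psmd13 held CCGGAAG 6 bases before the start. A promoter was at hand for 40 of the 47 genes, and the 7 without one were Psmb1, Psmb2, Psmb7, Psmc3, Psmd3, Psmd7, and Psmg2. CCGGAAG was present in 15 of 40 proteasome genes (37.5%) against 20% of 9930 expressed genes and 9.93% of all 27025 genes with a promoter. It was found in 9 of 14 genes of the 19S ATPases, base, and lid (Psmc1, Psmc2, Psmc6, Psmd2, Psmd4, Psmd6, Psmd11, Psmd12, and Psmd13) and in 1 of 11 genes of the 20S core (Psma6). A gene with several windows counted if any of them held the motif. For Psma6, CCGGAAG lay in the window at chr12:55398575-55398874, inside the gene, and not in that at chr12:55383972-55384271. CCAAT was in 14 of 40 proteasome genes (35.0%, against 42.7% of expressed genes), with 4 of 14 genes of the 19S particle and 6 of 11 of the 20S core. TGACNNNGC was in 6 of 40 proteasome genes (15.0%) against 17.0% of expressed genes, namely Psmb5, Psmb6, Psmc6, Psmd9, Psmd12, and Psme4. TGACTCA was in Psmd9 alone (2.5%, against 4.51%). A match describes the letters of this window and is no evidence of binding.

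In control nerves, 27 of the 47 genes were higher and 3 were lower in injured than in contralateral nerves (edgeR quasi-likelihood test, Benjamini-Hochberg adjusted p below 0.05 and a fold change above 1.2). Among all 12430 genes tested, 32.4% were higher and 32.9% lower, so the share of proteasome genes called higher (57.4%) was above that background and the share called lower (6.38%) below it. The median log2 fold change was 0.36 over the 47 genes and 0.00 over all genes, and without Psmc3ip the counts were 26 and 3 of 46. In 31 genes every injured library lay above every contralateral library and in 4 below, against 36.2% and 34.7% of all genes. In RaptorKO nerves, 28 of 47 genes were higher (59.6%) and 3 lower (6.38%), against 30.5% and 28.5% of 12515 genes tested. The median log2 fold change was 0.41 against 0.03 for all genes, and 26 genes lay above and 4 below without overlap, against 31.7% and 28.8% of all genes. With library totals alone in place of TMM, the median of all genes moved to 0.20 in controls and 0.19 in RaptorKOs and the medians of the proteasome genes to 0.55 and 0.57. The calls were then 34 higher and 2 lower in controls (41.2% and 25.6% of all genes) and 33 higher and 2 lower in RaptorKOs (37.6% and 22.7% of all genes).

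**Figure D1:**
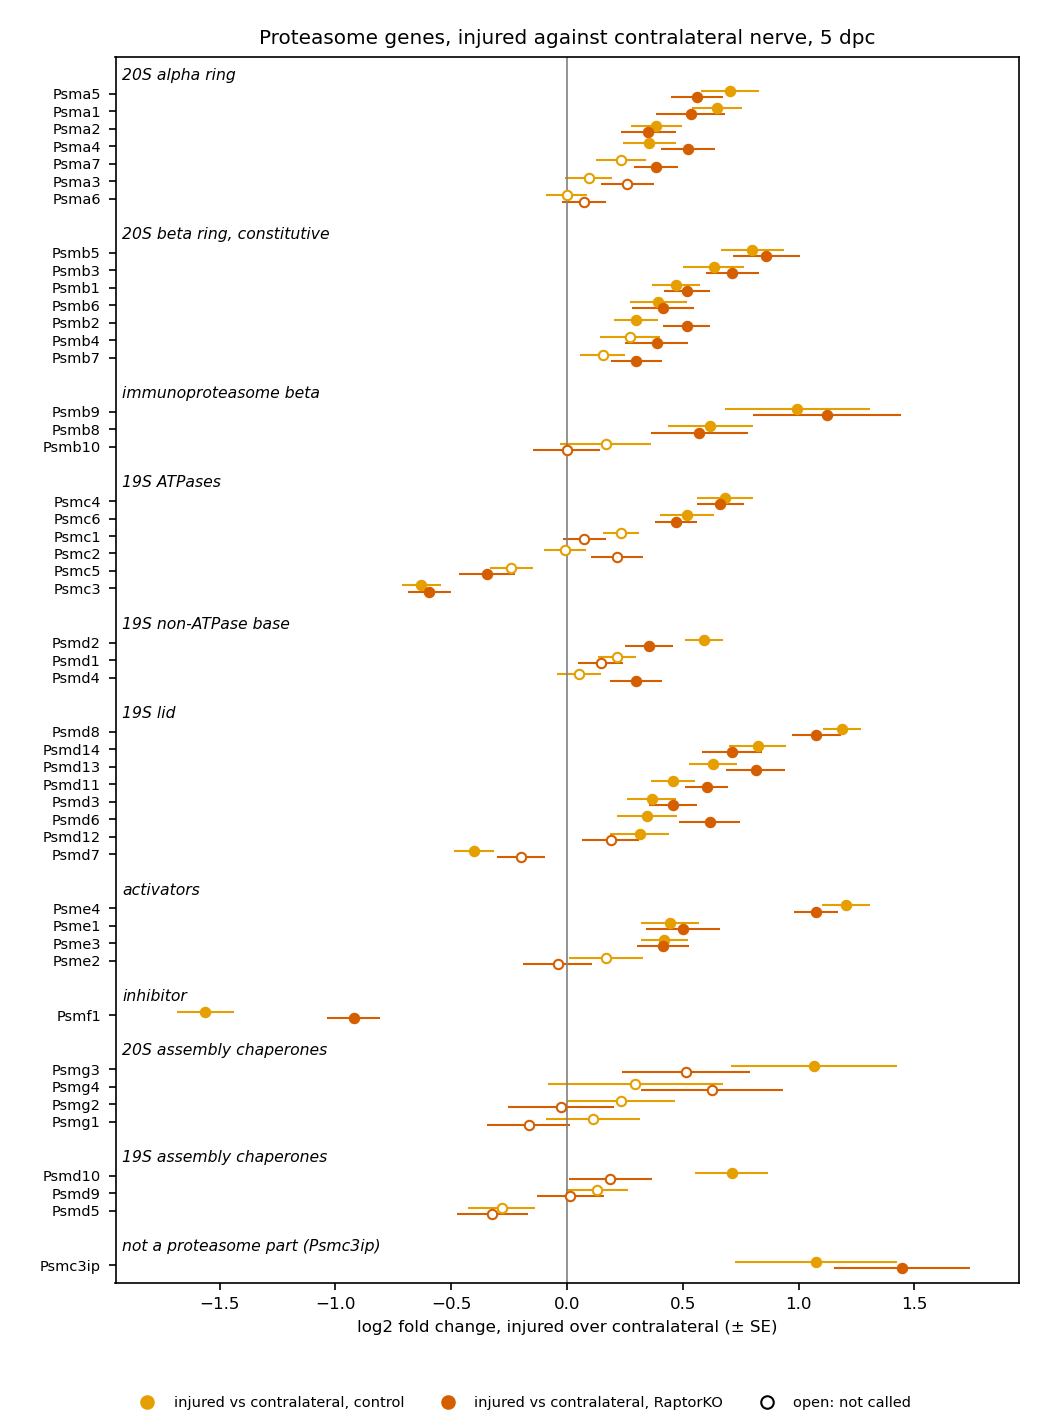
Log2 fold change of injured over contralateral nerves (x axis, ± SE) for each of the 47 genes (rows, grouped by role), in controls (light orange, 3 against 3 libraries) and RaptorKOs (dark orange, 3 against 4). Filled points passed the test and open points did not. Most rows lie right of 0 in both genotypes, and Psmf1 and Psmc3 lie farthest to the left.

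The injury comparisons of the genotypes use separate libraries. Of the genes called higher, 24 were shared, which is 88.9% of the 27 in controls and 85.7% of the 28 in RaptorKOs, and Psmf1 and Psmc3 were the 2 genes called lower in both. The sign of the injury difference was the same in both genotypes for 41 of 47 genes, and for all 9 genes called in 1 genotype only. The shares of shared calls and shared signs over all genes were not computed, so neither count is read as particular to these genes. The test of the difference between the genotypes' injury responses called 0 of 47 genes in either direction at an adjusted p below 0.05 (1.07% and 1.41% of 12851 genes were called more positive and more negative in RaptorKOs). Of the 47 genes, 2, Psmf1 and Psmd10, had an unadjusted p below 0.05, against 1827 of all 12851 genes, and DESeq2 called Psmf1.

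Of 7 constitutive beta genes, 5 were higher in controls and 7 in RaptorKOs, against 32.4% and 30.5% of all genes. Their summed level was 322 to 342 CPM in control contralateral and 416 to 472 CPM in control injured nerves. Psmb5, which carries the chymotrypsin-like site, had 20.9, 17.9, and 21.5 CPM in control contralateral, 21.6, 17.0, 20.1, and 17.0 CPM in RaptorKO contralateral, 32.6, 38.6, and 35.5 CPM in control injured, and 39.5, 33.0, and 30.9 CPM in RaptorKO injured nerves. All injured nerves were above all contralateral ones. The log2 fold change was 0.80 ± 0.14 in controls (adjusted p = 2.56e-04) and 0.86 ± 0.15 in RaptorKOs (adjusted p = 4.63e-04).

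Psmb6, which carries the caspase-like site, had 69.2, 73.0, and 84.2 CPM in control contralateral, 79.7, 91.5, 77.5, and 61.2 CPM in RaptorKO contralateral, 83.7, 104, and 115 CPM in control injured, and 106, 113, and 92.4 CPM in RaptorKO injured nerves. Control injured nerve 1 lay at the level of the highest control contralateral nerve. In log2 terms, the change was 0.39 ± 0.12 in controls (adjusted p = 0.0144, but 0.0511 to 0.0686 without control contralateral 1 or 2) and 0.42 ± 0.13 in RaptorKOs (adjusted p = 0.0211, but 0.0664 and 0.074 without RaptorKO injured 1 or 2). Psmb7, which carries the trypsin-like site, had 50.4, 47.0, and 48.1 CPM in control contralateral, 46.3, 44.1, 47.9, and 43.9 CPM in RaptorKO contralateral, 56.6, 56.9, and 51.4 CPM in control injured, and 62.5, 49.4, and 57.0 CPM in RaptorKO injured nerves. Injured nerves were above contralateral ones in both genotypes, by a small step. The log2 difference was 0.15 ± 0.10 in controls (adjusted p = 0.178) and 0.30 ± 0.11 in RaptorKOs (adjusted p = 0.0369). The RaptorKO call was lost with mouse as a block (adjusted p = 0.0664), in edgeR's exact test (0.0536), in DESeq2 (0.063), with DESeq2 size factors (0.0516), and without RaptorKO contralateral 1, 2, 3, or 4 or RaptorKO injured 1 or 3 (0.0549 to 0.17). The other beta genes, structural subunits without a proteolytic site, had log2 fold changes of 0.27 (Psmb4, adjusted p = 0.0803) to 0.63 (Psmb3, adjusted p = 0.0012) in controls and of 0.39 (Psmb4) to 0.71 (Psmb3) in RaptorKOs, all of the latter called. The call for Psmb2 in controls was lost without control contralateral 1 or 2, and that for Psmb4 in RaptorKOs without RaptorKO contralateral 3 or 4 or RaptorKO injured 1 or 2.

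**Figure D2:**
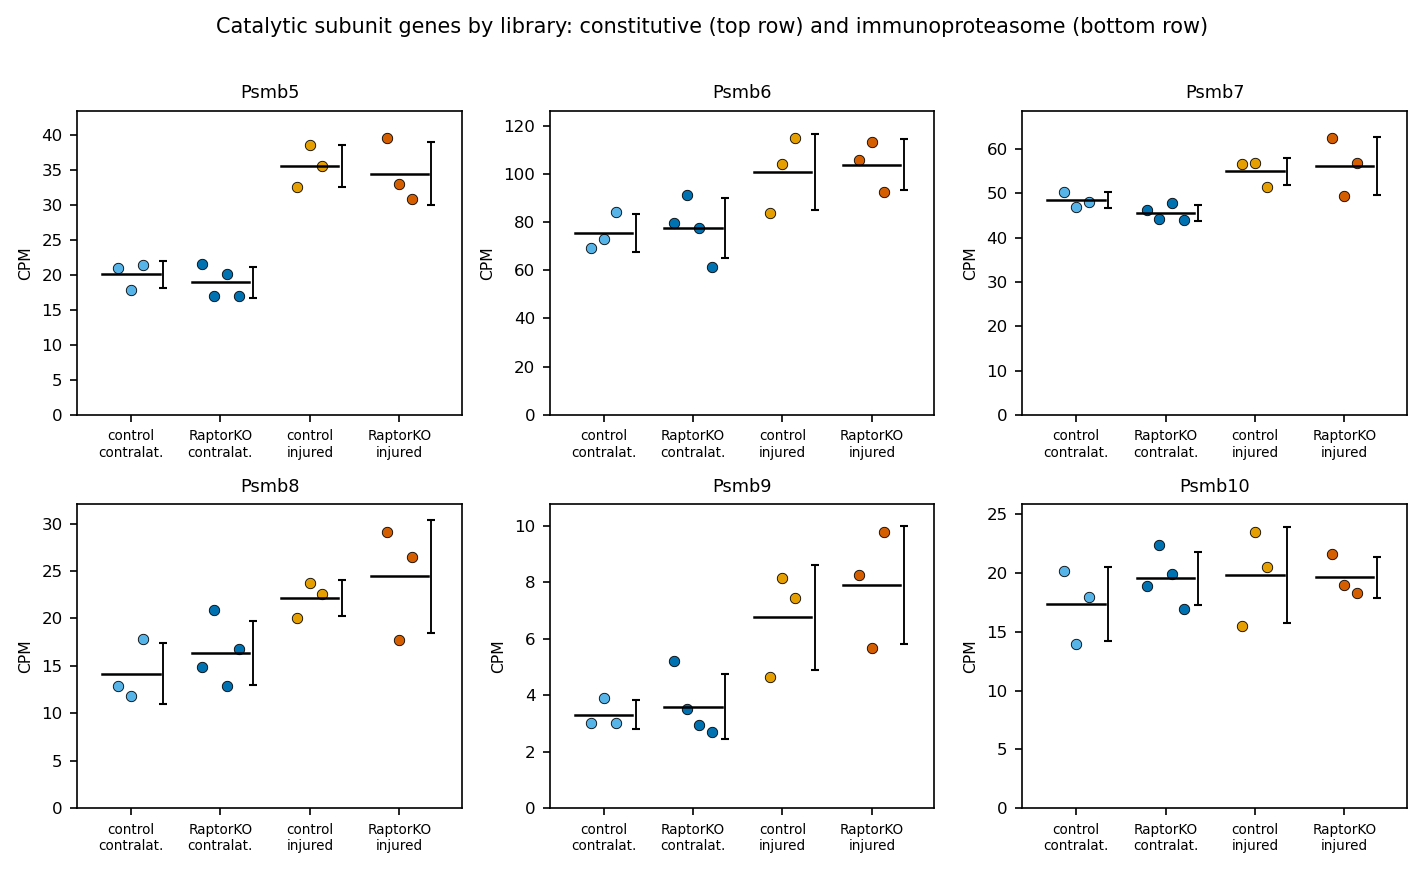
CPM (y axis) of the constitutive catalytic subunit genes Psmb5, Psmb6, and Psmb7 (top row) and their immunoproteasome counterparts Psmb8, Psmb9, and Psmb10 (bottom row) in the 4 groups. Points are libraries, lines are group means, and bars are SD. Psmb5 and Psmb9 are higher in every injured nerve than in the contralateral nerves of the same genotype, whereas Psmb10 overlaps between all groups.

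Of the 3 immunoproteasome genes, Psmb8 and Psmb9 were called higher in both genotypes and Psmb10 in neither, and no test compared these genes with each other. Psmb8 had 12.9, 11.8, and 17.9 CPM in control contralateral, 14.9, 20.8, 12.9, and 16.8 CPM in RaptorKO contralateral, 20.1, 23.8, and 22.6 CPM in control injured, and 29.1, 17.8, and 26.4 CPM in RaptorKO injured nerves. Groups were apart in controls and overlapped in RaptorKOs. The log2 fold change was 0.62 ± 0.18 in controls (adjusted p = 0.00998) and 0.57 ± 0.21 in RaptorKOs (adjusted p = 0.0371, but 0.0716 with mouse as a block, and 0.0618 to 0.165 without RaptorKO contralateral 1, 3, or 4 or RaptorKO injured 1 or 3).

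Psmb9, the least abundant subunit tested with 21 to 107 counts per library, had 3.0, 3.91, and 3.03 CPM in control contralateral, 5.23, 3.51, 2.95, and 2.71 CPM in RaptorKO contralateral, 4.66, 8.16, and 7.44 CPM in control injured, and 8.26, 5.66, and 9.79 CPM in RaptorKO injured nerves. It was higher in all injured nerves than in the contralateral nerves of the same genotype. In log2 terms, the change was 1.0 ± 0.31 in controls (adjusted p = 0.0146, but 0.0586 without control injured 2 and 0.0715 without both libraries of control mouse 3) and 1.12 ± 0.32 in RaptorKOs (adjusted p = 0.011, but 0.0512 without RaptorKO injured 3). Exons of Psmb9 overlap those of Tap1 on the other strand, and no source used here says whether strand was used in counting. Psmb10 had 20.1, 13.9, and 18.0 CPM in control contralateral, 18.9, 22.4, 19.9, and 16.9 CPM in RaptorKO contralateral, 15.4, 23.5, and 20.5 CPM in control injured, and 21.6, 18.9, and 18.3 CPM in RaptorKO injured nerves. The groups overlapped, with log2 differences of 0.17 ± 0.20 (adjusted p = 0.468) and 0.00 ± 0.15 (adjusted p = 0.996).

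Set against its constitutive counterpart per length of transcript, Psmb8 stood at 0.341 to 0.459 times the level of Psmb5 in control contralateral, 0.353 to 0.676 in RaptorKO contralateral, 0.34 to 0.351 in control injured, and 0.297 to 0.472 in RaptorKO injured nerves. The ratio of Psmb9 to Psmb6 was 0.0212 to 0.0387 in contralateral and 0.0295 to 0.0625 in injured nerves, and that of Psmb10 to Psmb7 was 0.263 to 0.449 and 0.241 to 0.365. Within controls, the 3 injured values of Psmb9 to Psmb6 (0.0329, 0.0463, and 0.0382) lay above the contralateral ones (0.0256, 0.0317, and 0.0212), whereas they overlapped in RaptorKOs. The ratio of Psmb8 to Psmb5 overlapped in both genotypes and that of Psmb10 to Psmb7 in controls, while in RaptorKOs the latter met at 0.34 (0.34 to 0.449 in contralateral and 0.284 to 0.34 in injured nerves). Per length of transcript, the constitutive form was the more abundant in every library. In CPM without length, Psmb8 was above Psmb5 in RaptorKO contralateral 2 (ratio 1.22). Markers of macrophages, which carry immunoproteasomes, were higher in injured nerves (10 of 10 in each genotype, with sums of 142 to 297 CPM against 1584 to 3324 CPM), and their part in the rise of Psmb8 and Psmb9 was not tested.

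Among the 7 alpha subunits, which form the outer rings, 4 genes were higher in controls and 5 in RaptorKOs, against 32.4% and 30.5% of all genes. Psma1, Psma2, Psma4, and Psma5 were called in both, with log2 fold changes of 0.36 (Psma4) to 0.70 (Psma5) in controls and 0.35 (Psma2) to 0.56 (Psma5) in RaptorKOs. Psma7 passed in RaptorKOs (0.38 ± 0.10, adjusted p = 0.00588) and stood at 0.23 ± 0.11 in controls (adjusted p = 0.0722, and called without control contralateral 3). Psma6 had log2 differences of 0.00 ± 0.09 and 0.07 ± 0.10 and Psma3 of 0.09 ± 0.10 and 0.26 ± 0.12, none of which passed. The call for Psma4 in controls was lost without control contralateral 1 or 2, that for Psma2 in RaptorKOs without RaptorKO contralateral 1 or 4 or RaptorKO injured 2 or 3, and that for Psma2 in controls without both libraries of control mouse 3. The summed level was 348 to 380 CPM in control contralateral, 327 to 373 CPM in RaptorKO contralateral, 438 to 484 CPM in control injured, and 452 to 467 CPM in RaptorKO injured nerves.

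The lid of the 19S cap has 8 genes, of which 7 were higher and 1 was lower in controls and 6 were higher in RaptorKOs. Among all genes, 32.4% were higher and 32.9% lower in controls, and 30.5% were higher in RaptorKOs. Psmd8 (Rpn12), a structural lid subunit at chr7:29174188-29180701 (minus strand), had 61.4, 66.8, and 61.6 CPM in control contralateral, 60.6, 67.0, 71.1, and 53.4 CPM in RaptorKO contralateral, 145, 152, and 144 CPM in control injured, and 133, 133, and 135 CPM in RaptorKO injured nerves. All injured nerves were above all contralateral ones, with little spread inside the injured groups. RaptorKO injured nerves lay below control injured ones, with a log2 difference of -0.12 ± 0.09 (adjusted p = 0.516). The log2 fold change of injured over contralateral nerves was 1.19 ± 0.08 in controls (adjusted p = 1.01e-07) and 1.08 ± 0.11 in RaptorKOs (adjusted p = 9.79e-06).

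Psmd14 (Rpn11), the enzyme that cleaves ubiquitin off the substrate, had 31.7, 28.5, and 29.8 CPM in control contralateral, 37.8, 36.3, 29.6, and 29.1 CPM in RaptorKO contralateral, 58.7, 57.3, and 45.8 CPM in control injured, and 55.2, 49.7, and 59.0 CPM in RaptorKO injured nerves. It was higher in every injured nerve, with log2 fold changes of 0.82 ± 0.12 (adjusted p = 1.02e-04) and 0.71 ± 0.13 (adjusted p = 7.89e-04). Psmd13 (Rpn9) had 42.7, 48.9, and 45.1 CPM in control contralateral, 44.4, 33.9, 41.3, and 33.4 CPM in RaptorKO contralateral, 66.5, 70.4, and 78.5 CPM in control injured, and 62.7, 73.0, and 66.7 CPM in RaptorKO injured nerves. The groups were apart in both genotypes, with log2 fold changes of 0.63 ± 0.10 (adjusted p = 2.15e-04) and 0.82 ± 0.13 (adjusted p = 2.79e-04), and exons of Psmd13 overlap Sirt3 on the other strand. Psmd11 (Rpn6), which clamps the cap to the core, had 53.0, 47.9, and 50.8 CPM in control contralateral, 48.1, 50.8, 48.8, and 47.7 CPM in RaptorKO contralateral, 76.3, 69.4, and 66.3 CPM in control injured, and 72.2, 71.5, and 79.8 CPM in RaptorKO injured nerves. In log2 terms, the change was 0.46 ± 0.10 in controls (adjusted p = 0.00116) and 0.60 ± 0.09 in RaptorKOs (adjusted p = 2.42e-04). The control call for Psmd12 (0.31 ± 0.13, adjusted p = 0.0492) was lost in edgeR's exact test and without both libraries of control mouse 3. It was also lost without control contralateral 1 or 2 or control injured 2 or 3. That for Psmd6 (0.35 ± 0.13, adjusted p = 0.0337) was lost without control contralateral 1, control injured 1, or both libraries of control mouse 3.

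Psmd7 (Rpn8), the partner of Psmd14 in the lid, went the other way. It had 129.8, 115, and 132 CPM in control contralateral, 137, 144, 136, and 119 CPM in RaptorKO contralateral, 104, 92.5, and 94.3 CPM in control injured, and 108, 131, and 112 CPM in RaptorKO injured nerves. Control groups did not overlap, and RaptorKO groups did. The log2 fold change was -0.40 ± 0.09 in controls (adjusted p = 0.00157, but 0.0687 with library totals alone) and the log2 difference -0.20 ± 0.10 in RaptorKOs (adjusted p = 0.126).

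Of the 3 non-ATPase genes of the 19S base, 1 was higher in controls and 2 in RaptorKOs, and of the 6 ATPase genes, 2 were higher and 1 lower in controls and 2 higher and 2 lower in RaptorKOs. Among all genes, 32.4% were higher and 32.9% lower in controls, and 30.5% and 28.5% in RaptorKOs. The ATPase share called higher (33.3% in each genotype) was near that background. Psmd2 (Rpn1), a docking site for ubiquitin shuttles, had 123, 115, and 124 CPM in control contralateral, 121, 141, 129, and 106 CPM in RaptorKO contralateral, 186, 193, and 176 CPM in control injured, and 165, 154, and 159.5 CPM in RaptorKO injured nerves. Injured nerves were above contralateral ones in both genotypes, with log2 fold changes of 0.59 ± 0.08 (adjusted p = 4.75e-05) and 0.35 ± 0.11 (adjusted p = 0.0142, but 0.0567 without RaptorKO injured 1). Psmd1 (Rpn2), a scaffold of the base, had log2 differences of 0.22 ± 0.08 (adjusted p = 0.0353, under the fold change threshold) and 0.14 ± 0.10 (adjusted p = 0.215). Psmd4, the other of the 3, overlapped between control groups (0.05 ± 0.09) and is given in full with the genotype comparisons.

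Psmc4 (Rpt3), an ATPase of the ring that unfolds substrates, had 43.8, 50.4, and 51.8 CPM in control contralateral, 43.4, 48.3, 49.0, and 42.4 CPM in RaptorKO contralateral, 66.7, 88.2, and 83.6 CPM in control injured, and 73.8, 76.2, and 68.3 CPM in RaptorKO injured nerves. It rose in both genotypes, by 0.68 ± 0.12 (adjusted p = 3.78e-04) and 0.66 ± 0.10 (adjusted p = 2.24e-04) on the log2 scale. Psmc3 (Rpt5), another ATPase and the proteasome transcript with the highest level per length in contralateral nerves, had 192, 193, and 196 CPM in control contralateral, 192, 218, 194, and 178 CPM in RaptorKO contralateral, 120.1, 136, and 126 CPM in control injured, and 133, 130.1, and 127 CPM in RaptorKO injured nerves. It was lower in all injured nerves than in any contralateral nerve. In log2 terms, the change was -0.63 ± 0.08 in controls (adjusted p = 3.92e-05) and -0.60 ± 0.09 in RaptorKOs (adjusted p = 2.73e-04), and exons of Psmc3 overlap Slc39a13 on the other strand.

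Psmc5 (Rpt6) had 79.2, 76.2, and 80.4 CPM in control contralateral, 92.3, 106, 86.5, and 77.6 CPM in RaptorKO contralateral, 66.9, 62.5, and 73.6 CPM in control injured, and 72.4, 77.1, and 65.3 CPM in RaptorKO injured nerves. The injured nerves were the lower ones in both genotypes. The log2 difference was -0.24 ± 0.09 in controls (adjusted p = 0.0378, under the fold change threshold) and the log2 fold change -0.34 ± 0.12 in RaptorKOs (adjusted p = 0.0292, but 0.214 with library totals alone, and 0.0588 to 0.0918 without RaptorKO contralateral 1 or 2 or RaptorKO injured 1 or 3). Psmc6 (Rpt4) was higher in both genotypes (0.52 ± 0.12 and 0.47 ± 0.09), whereas Psmc1 (0.23 ± 0.08 and 0.07 ± 0.09) and Psmc2 (-0.01 ± 0.09 and 0.22 ± 0.11) were not called. With rises and falls side by side, the 6 ATPase transcripts summed to 580 to 617 CPM in control contralateral and 596 to 626 CPM in control injured nerves, and to 551 to 655 CPM and 595 to 622 CPM in RaptorKOs. Injured and contralateral sums overlapped for the ATPases, whereas those of the lid did not (438 to 465 against 601 to 621 CPM in controls, and 402 to 479 against 612 to 640.0 CPM in RaptorKOs).

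**Figure D3:**
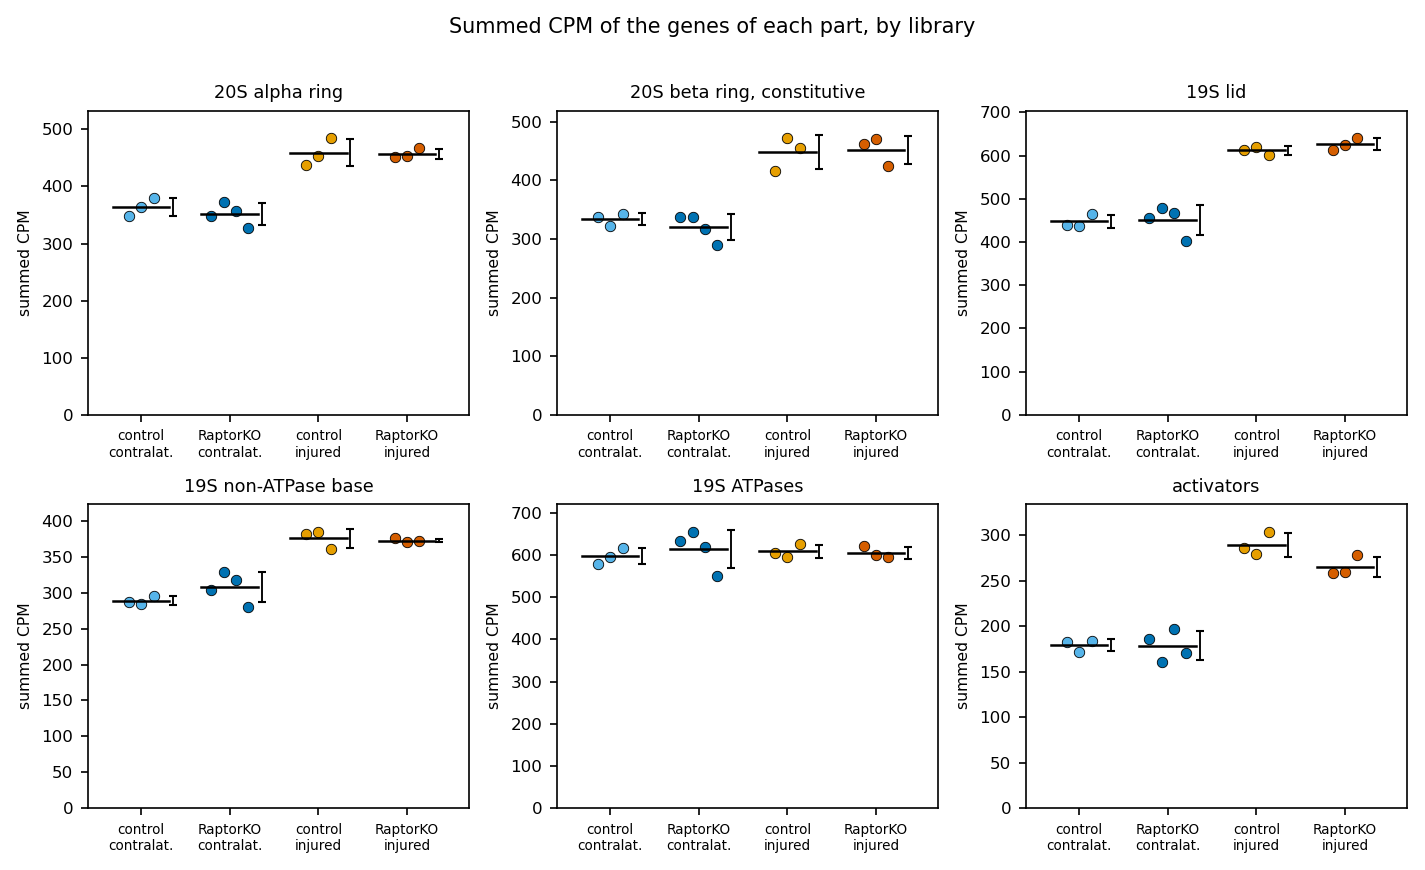
Summed CPM (y axis) of the genes of 6 parts of the proteasome (alpha ring, constitutive beta ring, lid, non-ATPase base, ATPases, and activators) in the 4 groups. Points are libraries, lines are group means, and bars are SD. Injured nerves lie above contralateral nerves in 5 of these panels, the exception being that of the 19S ATPases, where the groups overlap.

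The levels per kilobase of transcript spread widely among subunits that are assembled in equal number. In control contralateral nerves, the group means of the 7 constitutive beta genes ran from 22.4 (Psmb5) to 94.6 (Psmb6) CPM per kb, those of the 7 alpha genes from 18.2 (Psma2) to 67.9 (Psma6), those of the lid from 17.7 (Psmd11) to 79.5 (Psmd7), and those of the ATPases from 32.4 (Psmc6) to 118 (Psmc3). After injury, in controls, the ATPases ran from 47.0 (Psmc2) to 91.2 (Psmc1), since the most abundant one was lower and 2 of the less abundant ones were higher. In the lid, Psmd8 went from 41.1 to 95.4 CPM per kb in controls and became its most abundant transcript, above Psmd7 at 61.3. These lengths are those of 1 principal transcript per gene, so the levels depend on that choice.

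Among the activators, Psme4 encodes PA200, a large nuclear cap that opens the core without ubiquitin. It had 46.7, 51.5, and 56.9 CPM in control contralateral, 45.5, 42.1, 46.6, and 49.1 CPM in RaptorKO contralateral, 129, 109, and 126 CPM in control injured, and 97.0, 92.9, and 101 CPM in RaptorKO injured nerves. Injury separated the groups completely. The log2 fold change was 1.21 ± 0.10 in controls (adjusted p = 7.55e-07) and 1.08 ± 0.09 in RaptorKOs (adjusted p = 3.75e-06). Psme1 and Psme2 encode the 2 subunits of PA28, an activator of the core linked to antigen processing, and lie near each other on chromosome 14.

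Psme1 had 41.4, 31.8, and 42.8 CPM in control contralateral, 48.3, 33.4, 45.6, and 30.8 CPM in RaptorKO contralateral, 53.4, 53.6, and 53.2 CPM in control injured, and 54.9, 58.7, and 54.9 CPM in RaptorKO injured nerves. It was higher in all injured nerves, by 0.44 ± 0.12 (adjusted p = 0.00793) and 0.50 ± 0.16 (adjusted p = 0.0201, but 0.052 without RaptorKO contralateral 2 and 0.0565 without RaptorKO injured 2) on the log2 scale, and its exons overlap Emc9 on the other strand. Psme2 had 31.0, 29.6, and 32.8 CPM in control contralateral, 35.6, 31.4, 41.4, and 26.9 CPM in RaptorKO contralateral, 27.1, 38.6, and 41.1 CPM in control injured, and 31.9, 34.3, and 33.0 CPM in RaptorKO injured nerves. The groups overlapped, with log2 differences of 0.17 ± 0.16 (adjusted p = 0.367, but 0.0327 without control injured 1) and -0.04 ± 0.15 (adjusted p = 0.839). Whether the PA28 partners differed from each other in their response was not tested.

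Psme3, which encodes the nuclear activator PA28 gamma, had 63.6, 58.5, and 51.9 CPM in control contralateral, 56.8, 54.0, 63.1, and 64.3 CPM in RaptorKO contralateral, 76.5, 77.7, and 83.1 CPM in control injured, and 74.8, 74.1, and 89.9 CPM in RaptorKO injured nerves. It was higher in all injured nerves, by 0.42 ± 0.10 (adjusted p = 0.00299) and 0.41 ± 0.11 (adjusted p = 0.00822) on the log2 scale.

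**Figure D4:**
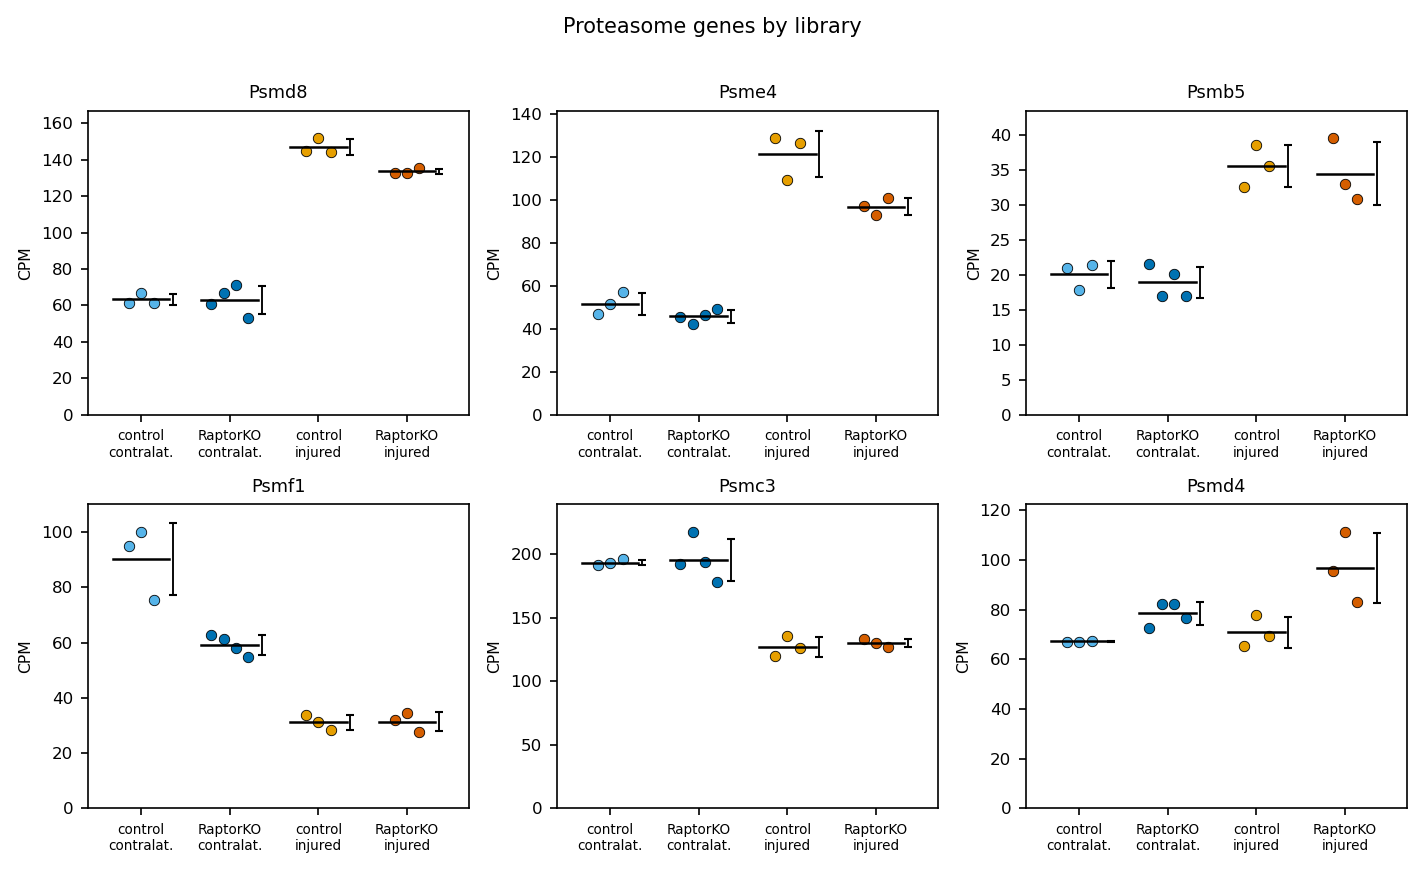
CPM (y axis) of 6 proteasome genes in the 4 groups. Points are libraries, lines are group means, and bars are SD. Psmd8, Psme4, and Psmb5 are higher in all injured nerves, Psmf1 and Psmc3 are lower in all injured nerves, RaptorKO contralateral nerves lie below control contralateral nerves for Psmf1, and RaptorKO nerves lie above control nerves of the same side for Psmd4.

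Psmf1 (chromosome 2, minus strand) encodes PI31, a protein known as an inhibitor of the core in vitro and as a factor for proteasome transport in axons, and had the largest fall. There were 94.9, 100.1, and 75.6 CPM in control contralateral, 62.8, 61.4, 58.0, and 54.6 CPM in RaptorKO contralateral, 33.7, 31.3, and 28.4 CPM in control injured, and 32.0, 34.3, and 27.7 CPM in RaptorKO injured nerves. The values fall into 3 levels, with control contralateral nerves highest, RaptorKO contralateral nerves between, and injured nerves of both genotypes at the same low level. The log2 fold change of injured over contralateral nerves was -1.56 ± 0.12 in controls (adjusted p = 3.74e-07) and -0.92 ± 0.11 in RaptorKOs (adjusted p = 5.21e-05). SC markers fell at the same time (9 of 10 called lower in controls and 8 of 10 in RaptorKOs, with a median log2 fold change of -3.61 in both), and their part in the fall of Psmf1 was not tested.

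Of the 7 assembly chaperones, 2 were higher in controls and 0 in RaptorKOs, against 32.4% and 30.5% of all genes. Of the 4 chaperones of the 20S core (Psmg1 to Psmg4), Psmg3 was higher in controls (1.07 ± 0.36, adjusted p = 0.0197) and 0 of 4 were called in RaptorKOs, where their log2 differences ran from -0.17 to 0.63. Psmg3 had only 23 to 90 counts per library and Psmg4 27 to 90, and the call for Psmg3 was lost without control contralateral 2 or 3 or control injured 2. Of the 3 chaperones of the 19S base (Psmd5, Psmd9, and Psmd10), Psmd10 was higher in controls (0.71 ± 0.16, adjusted p = 0.00184). It stood at 0.19 ± 0.18 in RaptorKOs (adjusted p = 0.396), and the difference between the genotypes' responses was -0.55 ± 0.24 (adjusted p = 0.302). For the RaptorKO counts of 0, an unadjusted p below 0.05 was reached by 0 of the 4 core chaperones and 0 of the 3 base chaperones. Over all genes it was reached by 7957 of 12515. Psmc3ip, with 16 to 121 counts, was called higher in both genotypes (1.08 ± 0.35 and 1.45 ± 0.29, the former lost without control contralateral 3 or control injured 2), beside the rise of 8 of 8 cycling markers, whose part in it was not tested.

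Between genotypes, few proteasome genes differed. In injured nerves, 1 of 47 genes was higher and 0 were lower in RaptorKOs than in controls, against 4.09% and 4.44% of 12040 genes tested, with a median log2 difference of 0.03. In contralateral nerves, 0 of 45 genes tested were higher and 1 was lower, against 4.49% and 5.68% of 11878 genes, with a median of 0.06. The exact test of edgeR and DESeq2 gave the same counts in both comparisons. Without adjustment, p was below 0.05 for 3 genes in each comparison. In injured nerves these were Psmd4 and Psmd7 (higher) and Psme4 (lower), and in contralateral nerves Psmd4 (higher) and Psmb2 and Psmf1 (lower). Over all genes, an unadjusted p below 0.05 was found for 2594 of 12040 in injured and 2955 of 11878 in contralateral nerves. The SE of a log2 difference had a median of 0.12 in injured and 0.11 in contralateral nerves, and 40 of 47 and 34 of 45 genes lay within 0.2 of 0. The share within 0.2 was not computed over all genes, so it is not read as particular to these. Psmb9 and Psmc3ip had too few counts in contralateral nerves to be tested there.

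Psmd4 (Rpn10), a ubiquitin receptor of the cap, was the gene higher in RaptorKO injured nerves. It had 67.0, 67.0, and 67.5 CPM in control contralateral, 72.7, 82.4, 82.2, and 76.5 CPM in RaptorKO contralateral, 65.5, 77.7, and 69.4 CPM in control injured, and 95.5, 111, and 83.2 CPM in RaptorKO injured nerves. RaptorKO nerves were above control nerves on both sides. In log2 terms, the change was 0.47 ± 0.13 in injured nerves (adjusted p = 0.049), and the log2 difference 0.24 ± 0.08 in contralateral nerves (adjusted p = 0.0926). The call in injured nerves was lost without control injured 1, 2, or 3 or RaptorKO injured 1 or 2 (adjusted p of 0.0861 to 0.158). Psmd4 was also called higher after injury in RaptorKOs (0.30 ± 0.11, adjusted p = 0.0419) and stood at 0.05 ± 0.09 in controls (adjusted p = 0.644). The RaptorKO injury call was lost with mouse as a block, in edgeR's exact test, in DESeq2, with DESeq2 size factors, and without any 1 of 6 of the 7 libraries, RaptorKO injured 3 being the exception (adjusted p up to 0.175). The interaction for Psmd4 was 0.22 ± 0.15 (adjusted p = 0.56). Beside Psmd4, 7 of 8 endothelial and 6 of 7 pericyte and vascular smooth muscle markers were higher in RaptorKO injured nerves, with endothelial sums of 721 to 1070 CPM against 356 to 527 CPM in control injured nerves. Of the cycling markers, 6 of 8 were lower, and the part of these cells in the difference was not tested.

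Psmf1 was the gene lower in RaptorKO contralateral nerves, by 0.59 ± 0.11 on the log2 scale (adjusted p = 0.00689), and the 4 RaptorKO libraries lay below the 3 control libraries listed for it above. In injured nerves its log2 difference was 0.03 ± 0.14 (adjusted p = 0.944). The difference between these, the interaction, was 0.62 ± 0.17 (adjusted p = 0.0724). DESeq2 called it (adjusted p = 0.0367), as did the main test without control contralateral 3 (adjusted p = 0.0431). Beside Psmf1, the SC markers in contralateral nerves summed to 85900 to 95080 CPM in controls and 73240 to 90080 CPM in RaptorKOs, and 3 of 10 were called lower in RaptorKOs. Macrophage markers (4 of 7 tested) and fibroblast markers (3 of 7) were called higher in RaptorKO contralateral nerves, with sums of 228 to 297 against 142 to 162 CPM and 7575 to 10430 against 4731 to 5622 CPM. The part of these cells in the difference was not tested.

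**Figure D5:**
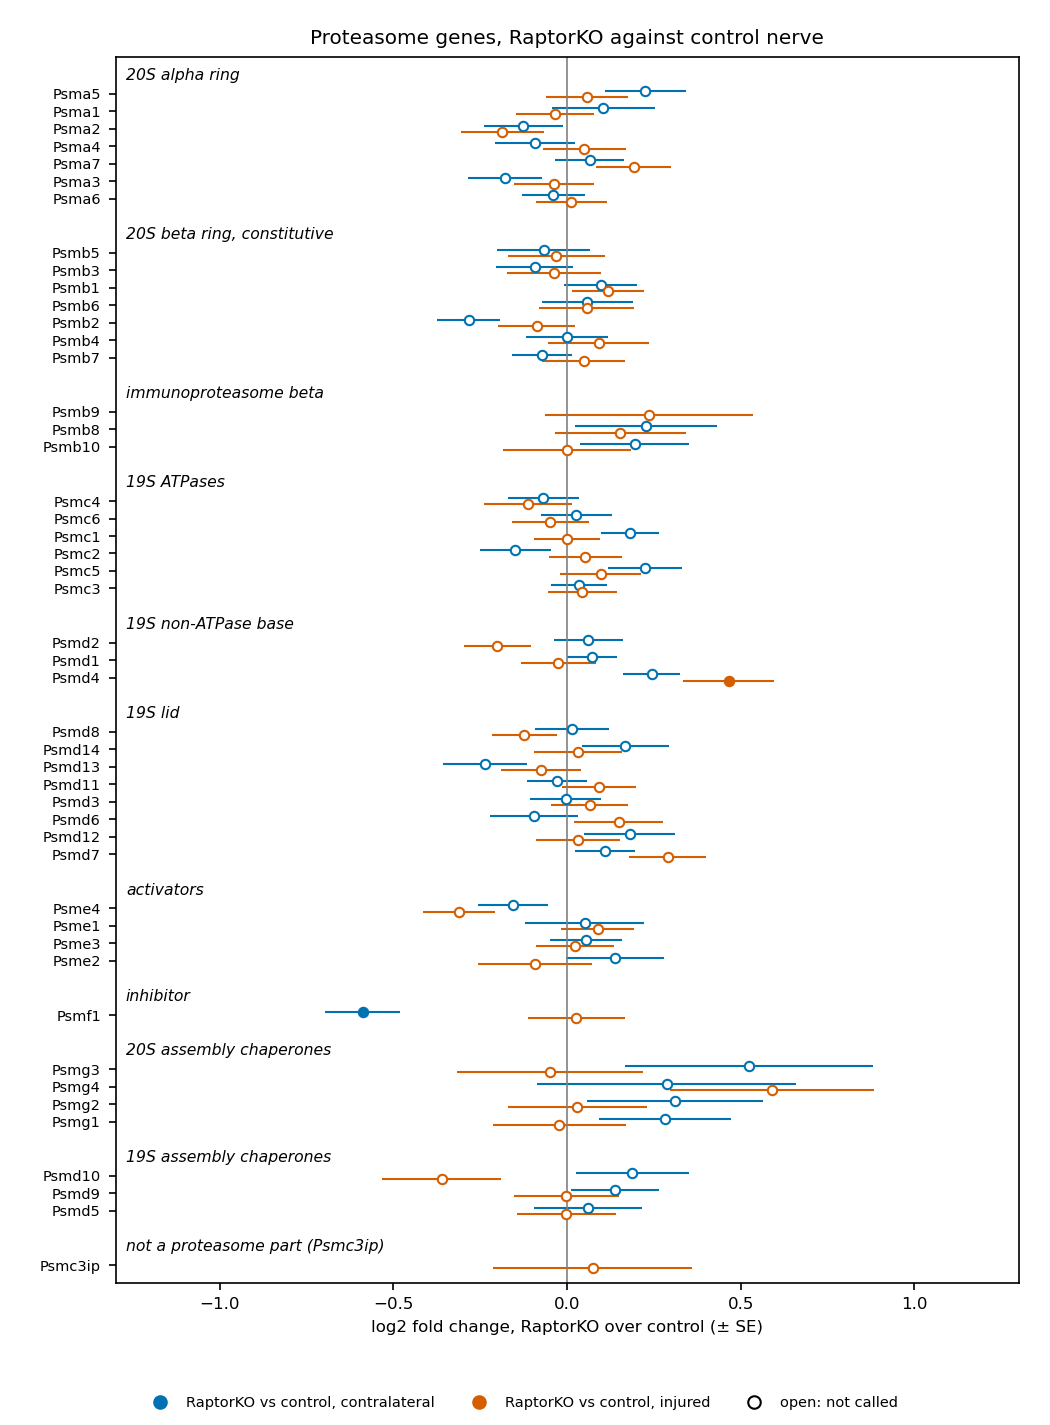
Log2 fold change of RaptorKO over control nerves (x axis, ± SE) for each of the 47 genes (rows, grouped by role), in contralateral (blue, 4 against 3 libraries) and injured nerves (dark orange, 3 against 3). Filled points passed the test and open points did not. Only Psmf1 in contralateral and Psmd4 in injured nerves are filled, and Psmb9 and Psmc3ip have no contralateral point because they were not tested there.

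Of the members without a call, Psmg4 and Psmg3, both with few counts, had the largest log2 differences, with 0.59 for Psmg4 in injured and 0.52 for Psmg3 in contralateral nerves. Psme4 had a log2 difference of -0.31 ± 0.10 between RaptorKO and control injured nerves (adjusted p = 0.0977, but 0.0454 with all 13 libraries in 1 fit), and its 3 RaptorKO injured libraries lay below the 3 control injured ones. Psmb2, a structural beta subunit, had 60.7, 59.5, and 68.4 CPM in control contralateral and 53.5, 50.3, 53.6, and 46.5 CPM in RaptorKO contralateral nerves. These groups did not overlap, with a log2 difference of -0.28 ± 0.09 (adjusted p = 0.0779). Groups did not overlap for 8 of 47 genes in injured nerves and 3 of 45 in contralateral nerves, against 26.3% and 23.6% of all genes. The constitutive catalytic genes Psmb5, Psmb6, and Psmb7 had log2 differences of -0.03 to 0.06 in injured and -0.07 to 0.06 in contralateral nerves. The immunoproteasome genes were at 0.00 to 0.24 in injured nerves and at 0.19 (Psmb10) and 0.23 (Psmb8) in contralateral nerves, and the activators Psme1, Psme2, and Psme3 at -0.09 to 0.09 and 0.05 to 0.14. None of these passed, with SE of 0.09 to 0.30.

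The genes around the proteasome were read from hand-written lists, of which 42 genes were tested. After injury, 18 were higher and 6 lower in controls (42.9% and 14.3%, against 32.4% and 32.9% of all genes), and 15 higher and 7 lower in RaptorKOs (35.7% and 16.7%, against 30.5% and 28.5%). Between genotypes, 1 was higher and 0 lower in RaptorKO injured nerves, and 2 were higher and 1 lower in RaptorKO contralateral nerves, with 3 and 7 genes at an unadjusted p below 0.05. The shares called (2.38% in injured, and 4.76% and 2.38% in contralateral nerves) stand beside 4.09% and 4.44% of all genes in injured and 4.49% and 5.68% in contralateral nerves. The unadjusted p was below 0.05 for 2594 of all 12040 genes in injured and for 2955 of all 11878 in contralateral nerves. Among 12 proteasome parts and assembly factors with other names, 7 were higher and 2 lower in controls and 4 higher and 1 lower in RaptorKOs. Sem1, a small lid subunit, had log2 fold changes of 0.79 (adjusted p = 8.38e-05) and 0.87 (adjusted p = 0.00146). Pomp, the chaperone that closes the core, had 0.38 (adjusted p = 0.00429) and 0.47 (adjusted p = 0.0166). Uchl5, a deubiquitinating enzyme bound to the cap, had -0.55 (adjusted p = 0.00231) and -0.52 (adjusted p = 0.00246).

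Among the genes around the proteasome that bear on its transcription, Nfe2l1, which drives proteasome genes when proteolysis is short, was lower after injury (-1.01, adjusted p = 5.18e-06 in controls, and -0.69, adjusted p = 5.94e-04 in RaptorKOs). Nfe2l2, the related oxidative stress factor, was higher (0.53, adjusted p = 1.38e-04, and 0.36, adjusted p = 0.0317), and Ddi2, the protease that activates the Nfe2l1 protein and is listed with the shuttles, was higher (0.77, adjusted p = 9.89e-04, and 0.83, adjusted p = 2.72e-04). Of the 4 regulators, 1 was higher and 2 were lower in controls and 1 was higher and 1 lower in RaptorKOs. Vcp, the unfoldase that feeds the proteasome, was higher (0.72, adjusted p = 2.98e-05, and 0.54, adjusted p = 5.99e-04), and 2 of the 9 shuttle and unfolding genes were higher in each genotype. Of 6 genes of ubiquitin and its activating enzymes, 3 were higher in controls and 2 were higher and 1 lower in RaptorKOs, with Rps27a, a ubiquitin fusion with a ribosomal protein, higher in both. Beside these lists, 32.4% of all genes were higher and 32.9% lower in controls, and 30.5% and 28.5% in RaptorKOs.

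Rps27a was also higher in RaptorKOs than in controls. It had a log2 fold change of 0.62 in injured (adjusted p = 0.0114) and 0.92 in contralateral nerves (adjusted p = 8.75e-05). Fbxo7, a ubiquitin ligase subunit that binds PI31, was lower in RaptorKO contralateral nerves (-0.33, adjusted p = 0.0305). Of 11 genes of peptide loading and interferon signaling, 5 were higher and 2 lower after injury in controls (against 32.4% and 32.9% of all genes). In RaptorKOs, 6 were higher and 3 lower (against 30.5% and 28.5%). Irf8, a factor of the macrophage lineage, had the largest rise (4.08, adjusted p = 1.96e-08, and 3.05, adjusted p = 1.7e-07), and Tap1 rose by 0.68 (adjusted p = 0.0111) and 0.51 (adjusted p = 0.0196).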

How the data were processed

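The authors deposited RSEM expected counts per gene. The submitters' processing notes name Trimmomatic, RSEM 1.2.22, and GRCm38. Libraries came from a stranded mRNA kit, and whether counting used strand is not given in the sources used here. Of 40787 gene IDs, 40634 matched GENCODE M21. The deposited expected counts were rounded, and genes with 50 counts or more in at least 2 libraries of a comparison were tested with edgeR 4.0.16 (R 4.3.3) by its quasi-likelihood test with TMM scaling. P-values were adjusted over all genes tested (Benjamini-Hochberg), and a call needed an adjusted p below 0.05 and a fold change above 1.2. The interaction used all 13 libraries and no fold change threshold. Errors beside log2 values are SE. The fits of genotype in injured nerves, of injury in controls, and of the interaction were tested on simulated data. The other fits were not. Alternatives were DESeq2 1.42.0, the exact test, other scalings, filters and thresholds, a replicate block, and single libraries left out.

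Same-named libraries of a genotype come from both nerves of 1 mouse, per the sample titles, so the numbers pair the injury samples by mouse. The values given are from fits without this pairing, and the fit with mouse as a block was an alternative. The correlation of same-mouse deviations was 0.086, 0.109, and 0.306 in controls and -0.025, 0.24, and 0.186 in RaptorKOs. Libraries of different mice are the replicates. Named with every library were the 5 called genes with the smallest p per comparison and direction, Psmb5 to Psmb10, and Psme1 to Psme3. For other pathway genes, up to 5 called ones were to be named per comparison. Any further gene was named after its values were seen. Members and lists were chosen with earlier results of these data known.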

Additional observations from a re-analysis of the deposited data

How the results depend on the processing

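No call of a named gene changed direction under any alternative run. Of the values for genes named by the rule, 808 kept their state (called or not called), 46 lost a call, and 4 gained one. That set was picked by small p and by fixed names, so these counts do not speak for the calls of other members. In injured nerves, the count of proteasome genes lower in RaptorKOs went from 0 to 1 with all 13 libraries in 1 fit (Psme4). The count higher went from 1 to 0 at an adjusted p below 0.01 and with the replicate block (Psmd4, adjusted p = 0.0505), and was 0 to 1 with single libraries left out. At an adjusted p below 0.01, 18 genes in place of 28 were higher after injury in RaptorKOs, and 19 in place of 27 in controls. For the interaction, the count more positive in RaptorKOs was 1 with DESeq2 in place of 0, and 0 to 1 with single libraries left out, the 1 being Psmf1 without control contralateral 3. With single libraries left out, 22 to 28 genes were higher and 3 to 4 lower after injury in controls, and 22 to 27 higher and 2 to 4 lower in RaptorKOs. Without both libraries of control mouse 3, these were 25 and 3 in controls. For these settings and the replicate block, the shares of all genes are not given here. The counts are therefore set only against the main test of the same genes, and not against other genes.

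With the replicate block, 27 genes were higher and 3 lower after injury in controls, and 25 higher and 3 lower in RaptorKOs, where Psmb7, Psmb8, and Psmd4 lost their calls. Between genotypes the replicate number marks different mice. With the block, 0 genes were called in injured nerves, 1 was lower in contralateral nerves, and 0 were called for the interaction. Same-numbered deviations correlated by -0.008, 0.039, and -0.087 in injured and 0.036, 0.249, and 0.325 in contralateral nerves. Genes under 100 counts (Psmb9, Psmg3, Psmg4, and Psmc3ip in most libraries) have the widest errors, and their calls rest on few reads.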
